A study of Mus musculus with 140 samples.

Results

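The data cover the liver transcriptome of Bmal1-/- mice, set against that of WT mice, at circadian time (CT) 20 and CT44, the same phase of 2 successive days in constant dark. The members are all libraries labelled with these genotypes and times, 7 of Bmal1-/- livers (3 at CT20, 4 at CT44) and 8 of WT livers (4 at CT20, 4 at CT44), which make 15 of the 140 libraries in the series. The Bmal1-/- mice carried the B6.129-Arntl tm1Bra/J allele, a deletion in every cell of the body that removes BMAL1 from the liver and from all other tissues. WT mice were C57BL/6. Both groups were males of 3 months with free access to food, kept in a 12-hour light and 12-hour dark cycle for at least 2 weeks and then in constant dark, with CT0 as the start of the first subjective day. The labels do not say whether the letters A to D at a time point are separate mice, so all p-values measure the spread between libraries. Transcripts were counted from their 3′ ends by bulk MARS-seq, in which molecular barcodes let copies made by PCR be counted once.

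BMAL1 (the product of Arntl) pairs with CLOCK or its relative NPAS2 and activates genes through E-box motifs. Among these genes are Per and Cry, whose proteins repress the pair, and Nr1d1 and Nr1d2, whose proteins (REV-ERBs) repress genes with a REV-ERB response element (RRE), such as Arntl, Npas2, Cry1 and Nfil3. A further arm consists of DBP, TEF and HLF, activators encoded by E-box genes that bind D-boxes, and their repressor NFIL3. In liver these arms time the expression of genes for lipid, bile acid and drug metabolism over the day. CT20/CT44 lies in the late subjective night.

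Promoters of clock genes show where these motifs lie. In RefSeq sequence (GRCm38.p6), the 250 bases before an annotated start were searched on both strands. The E-box CACGTG occurred in 6 of the 14 listed E-box targets with a promoter in the table (42.9%), against 10.6% of the genes tested here and 6.86% of all genes. The D-box TTATGTAA occurred in Per3 alone among 10 listed D-box targets (10.0%), against 0.647% of the genes tested and 0.977% of all. The RRE half-site AGGTCA occurred in 2 of 7 RRE targets (28.6%), against 13.6% of the genes tested and 15.8% of all. A match is a description of the letters and not a bound site. The stretches below are shown because the 4 genes, each with a clock motif, did not all behave alike at CT20/CT44. The motif, an E-box in Per1, Cry1 and Tef and a D-box in Per3, stands in capitals. Each sequence runs 5′ to 3′ on the strand of its gene, and the stretches lie at chr11:69098753-69098818 (Per1), chr10:85185079-85185144 (Cry1), chr15:81802516-81802581 and chr15:81811246-81811311 (2 starts of Tef) and chr4:151044786-151044900 (Per3).
Per1, E-box: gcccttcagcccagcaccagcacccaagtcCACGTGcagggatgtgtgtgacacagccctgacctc
Cry1, E-box: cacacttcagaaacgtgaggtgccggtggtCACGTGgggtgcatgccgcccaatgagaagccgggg
Tef, first start, E-box: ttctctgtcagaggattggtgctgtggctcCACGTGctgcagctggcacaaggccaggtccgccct
Tef, second start, E-box: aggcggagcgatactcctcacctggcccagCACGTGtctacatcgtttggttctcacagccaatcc
Per3, D-box: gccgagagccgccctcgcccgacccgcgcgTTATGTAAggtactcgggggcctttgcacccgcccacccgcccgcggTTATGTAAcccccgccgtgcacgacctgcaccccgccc

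Total counts were 2394760 to 5152652 per Bmal1-/- library (median 3903918, n = 7) and 2416704 to 3795323 per WT library (median 3011530, n = 8). Each genotype was counted in its own table, and the tables list different RefSeq symbols: 10559 are in both, 1049 only in that of Bmal1-/- (2.737% of its counts) and 1168 only in that of WT (3.172%). Genotype therefore cannot be told apart from table, annotation release and library set in any single difference, whereas a change of the difference between 2 phases is free of any factor that is constant within a table. There were 3 libraries that stood apart from their group. In Bmal1-/- CT44 D, the shallowest, 219 genes lay over 2-fold below all other Bmal1-/- libraries, with Alb at 3343 CPM (each count scaled to the library total) there and 15326 to 23303 CPM in the other 6, and B2m at 89 CPM there and 1204 to 1676 CPM in the others. WT CT44 A had 60 genes over 2-fold below all other WT libraries, Elovl3 and the sterol gene Msmo1 among them, and WT CT44 C had 55 over 2-fold above, Cd74 and Saa2 among them. No other library exceeded 25 genes below or 11 above. Hepatocyte markers were abundant in every library, with a summed level of 58583 to 95844 CPM in Bmal1-/- and 76627 to 115016 CPM in WT.

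Of 8415 genes tested, 3518 (41.8%) differed between genotypes at an adjusted p under 0.05 (edgeR's quasi-likelihood F-test with day as a block): 1701 (20.2%) were higher in Bmal1-/- and 1817 (21.6%) lower. Of these, 374 were higher by at least 1 and 606 lower by at least 1 on the log2 scale, and 1155 (13.7% of those tested) had no overlap between the 7 Bmal1-/- and the 8 WT values. With so large a background, single calls are read below against these shares. The test took genes with at least 10 counts in at least 7 libraries, and 92 of the called genes (43 higher, 49 lower) passed this minimum through 1 genotype alone, so that they had to differ to be tested. Npas2, Nr1d1, Acot3, Gadd45b, Rps20 and Samm50 are among them. A change of the difference between the days was not detectable at this depth: the genotype by day term passed for 0 genes by edgeR (0.0%), with a smallest adjusted p of 0.159 and 601 genes at an unadjusted p under 0.05, while DESeq2 called 6. CPM are scaled by TMM factors. Each gene is given by its lowest, median and highest library in Bmal1-/- (n = 7) and then in WT (n = 8), followed by the log2 fold change, Bmal1-/- over WT, ± its standard error (SE).

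Of the activators of the clock, Arntl was lower and Npas2 higher. Arntl (chr7:113178471-113314126) had 6.83, 8.57 and 11.9 CPM in Bmal1-/- livers and 13.1, 23.1 and 24.9 CPM in WT livers (log2 fold change -1.33 ± 0.15, adjusted p = 2.84e-06). All Bmal1-/- libraries lay below all WT libraries. Counts came from 3′ ends, and the sources used here do not give where these lie relative to the deleted part of the gene, so this level does not check the genotype. Npas2 (chr1:39193702-39363240), which encodes the partner that can stand in for CLOCK, had 10.7, 17.1 and 29.1 CPM in Bmal1-/- livers and 0, 0.883 and 2.495 CPM in WT livers (log2 fold change 4.17 ± 0.36, adjusted p = 6.92e-08), again with no overlap. Its raw counts were 34 to 116 per Bmal1-/- library and 0 to 8 per WT library, so it reached the minimum through the 7 Bmal1-/- libraries alone and was not tested without any 1 of them. With no minimum the log2 fold change of Npas2 was 4.19 (edgeR, adjusted p = 3.72e-08). Clock itself did not reach the minimum of 10 counts in 7 libraries and was not tested.

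**Figure D1:**
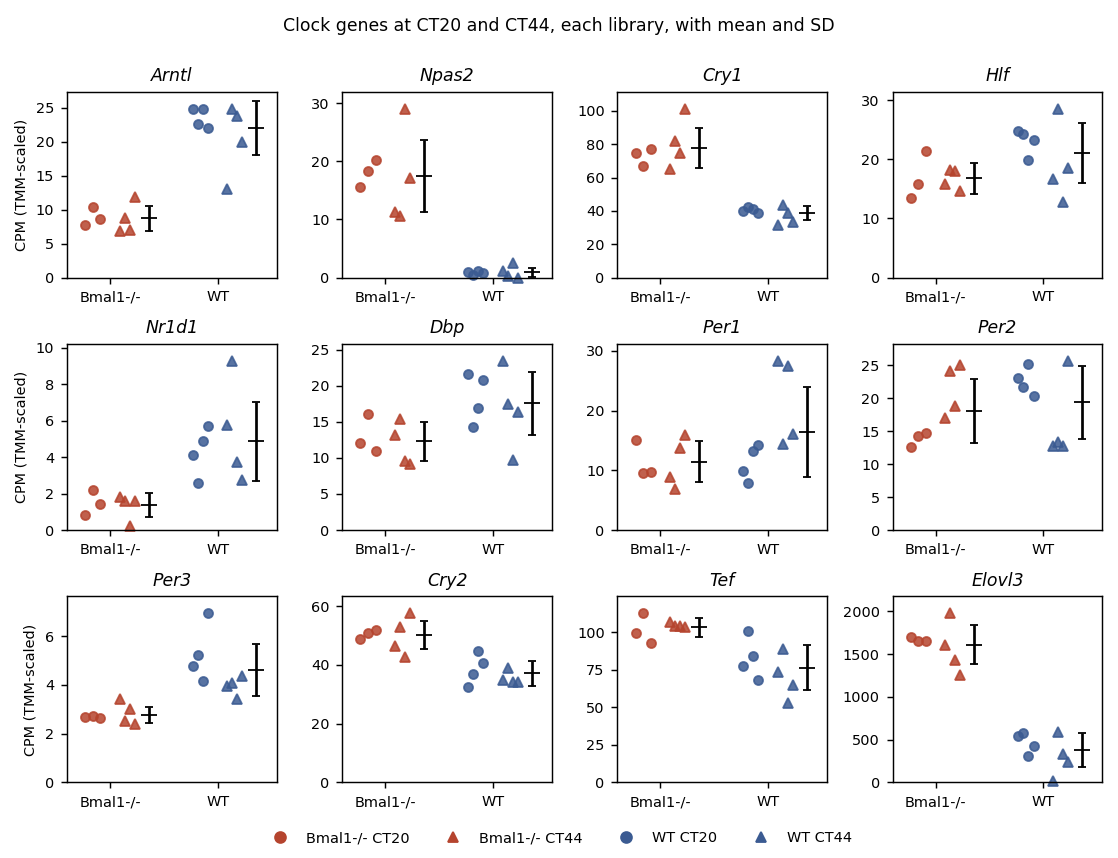
CPM (TMM-scaled) of 12 clock genes in each library, with Bmal1-/- (red) left of WT (blue) and CT20 (circles) and CT44 (triangles) apart; bars give the mean and SD. Arntl and Nr1d1 lay lower and Npas2, Cry1 and Elovl3 higher in every Bmal1-/- library than in any WT library, while the groups overlapped for Dbp, Hlf, Per1 and Per2.

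The E-box targets split. Of 14 tested, 3 were higher, where 20.2% of all genes were, 6 were lower, where 21.6% of all genes were, and 5 did not pass the test, with a median log2 fold change of -0.40 against -0.01 over all genes. Without WT CT20 D 3 were lower, as Dbp and Usp2 lost their call and Nr1d1 was not tested. Nr1d1, among the 6 lower, reached the count minimum through WT alone, so it had to differ to be tested. Among the Per genes, which encode the repressors of BMAL1, Per1 had 6.91, 9.797 and 15.9 CPM in Bmal1-/- and 7.81, 14.4 and 28.3 CPM in WT (log2 fold change -0.52 ± 0.24, adjusted p = 0.0887). Per2 had 12.6, 17.1 and 25.02 CPM in Bmal1-/- and 12.8, 21.04 and 25.7 CPM in WT (log2 fold change -0.12 ± 0.20, adjusted p = 0.665). Neither passed the test, and both overlapped widely. Per3, which has the paired D-boxes printed above, was lower, with 2.38, 2.69 and 3.42 CPM in Bmal1-/- and 3.43, 4.25 and 6.93 CPM in WT (log2 fold change -0.70 ± 0.18, adjusted p = 0.00495) and no overlap, at raw counts of 6 to 13 in Bmal1-/- and 11 to 17 in WT.

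The Cry genes, which encode the other repressors, were both higher. Cry1 (chr10:85131700-85185054) had 65.2, 74.9 and 101 CPM in Bmal1-/- and 31.3, 39.4 and 43.4 CPM in WT (log2 fold change 1.00 ± 0.11, adjusted p = 9.27e-07), and every Bmal1-/- library exceeded every WT library. Cry2 had 42.6, 50.8 and 57.6 CPM in Bmal1-/- and 32.4, 35.9 and 44.8 CPM in WT (log2 fold change 0.44 ± 0.09, adjusted p = 0.00094), with some overlap. Cry1 is also counted among the RRE targets below.

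Of the REV-ERB genes, Nr1d1 (chr11:98767932-98775377) had 0.2504, 1.57 and 2.22 CPM in Bmal1-/- and 2.604, 4.51 and 9.27 CPM in WT (log2 fold change -1.78 ± 0.34, adjusted p = 0.000486). No library overlapped, although the raw counts behind these levels were only 1 to 9 in Bmal1-/- and 6 to 25 in WT. It was not tested without any 1 of the 7 WT libraries that held at least 10 counts. Nr1d2 was too low for the test, with 0, 0.397 and 1.88 CPM in Bmal1-/- and 0.377, 1.56 and 3.35 CPM in WT.

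The D-box activators differed among themselves. Dbp had 9.13, 12.1 and 16.04 CPM in Bmal1-/- and 9.67, 17.2 and 23.4 CPM in WT (log2 fold change -0.50 ± 0.18, adjusted p = 0.0302). This call is weak: the values overlapped, and it was lost on leaving out any 1 of 7 libraries (Bmal1-/- CT20 B or D, Bmal1-/- CT44 C or D, WT CT20 A or D, WT CT44 A), with adjusted p of 0.0527 to 0.0741. Tef, with an E-box at both of its starts printed above, was higher, with 92.7, 104 and 113 CPM in Bmal1-/- and 52.7, 75.8 and 101 CPM in WT (log2 fold change 0.45 ± 0.11, adjusted p = 0.00367), with overlap. Hlf had 13.4, 15.8 and 21.4 CPM in Bmal1-/- and 12.8, 21.6 and 28.6 CPM in WT (log2 fold change -0.30 ± 0.15, adjusted p = 0.12). Thus 1 of the 3 was higher, 1 lower by a margin that single libraries decided, and 1 not called.

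The other E-box targets were lower or not called. Tspan4, which encodes a tetraspanin, had 86.7, 113 and 159 CPM in Bmal1-/- and 169, 223 and 246 CPM in WT (log2 fold change -0.91 ± 0.13, adjusted p = 1.89e-05), with no overlap. Usp2, a ubiquitin-specific protease, had 12.1, 19.5 and 24.98 CPM in Bmal1-/- and 15.2, 27.8 and 48.1 CPM in WT (log2 fold change -0.61 ± 0.23, adjusted p = 0.036). Wee1, a kinase that holds back mitosis, had 2.37, 3.18 and 4.03 CPM in Bmal1-/- and 2.64, 5.04 and 6.998 CPM in WT (log2 fold change -0.70 ± 0.23, adjusted p = 0.0195). Both overlapped: the call of Usp2 was lost without any 1 of 9 libraries (Bmal1-/- CT20 B, C or D, Bmal1-/- CT44 A, B or D, WT CT20 B or D, WT CT44 B), with adjusted p of 0.0516 to 0.0955, and that of Wee1 without Bmal1-/- CT44 A (adjusted p = 0.0505). Bhlhe40, a repressor of E-box genes also known as DEC1, had 31.96, 46.9 and 142 CPM in Bmal1-/- and 29.2, 50.01 and 63.3 CPM in WT (log2 fold change 0.40 ± 0.30, adjusted p = 0.298).

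The position of CT20/CT44 in the WT day was checked from the means of each phase over both days (8 WT libraries a phase, scaled over all 94 libraries of the 2 genotypes). Of the 15 E-box targets in both tables, 1, Nr1d1, had its lowest WT mean at CT20/CT44, 6 had it at CT0/CT24, 6 at CT4/CT28 and 2, Cry1 among them, at CT8/CT32. At CT20/CT44, WT livers held less than 50% of their highest phase mean for 8 of the 15. This share was smallest for Nr1d1, at 1.81% (4.72 ± 2.09 CPM at CT20/CT44, 260 ± 59.7 CPM at its highest, SD, n = 8), and next for Dbp, at 3.92% (17.1 ± 4.30 CPM at CT20/CT44, 436 ± 40.8 CPM at its highest). In contrast, Cry1 was at its highest WT mean at CT20/CT44. As the phase at which BMAL1 targets are lowest in WT, CT20/CT44 thus held strictly for Nr1d1 alone.

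**Figure D2:**
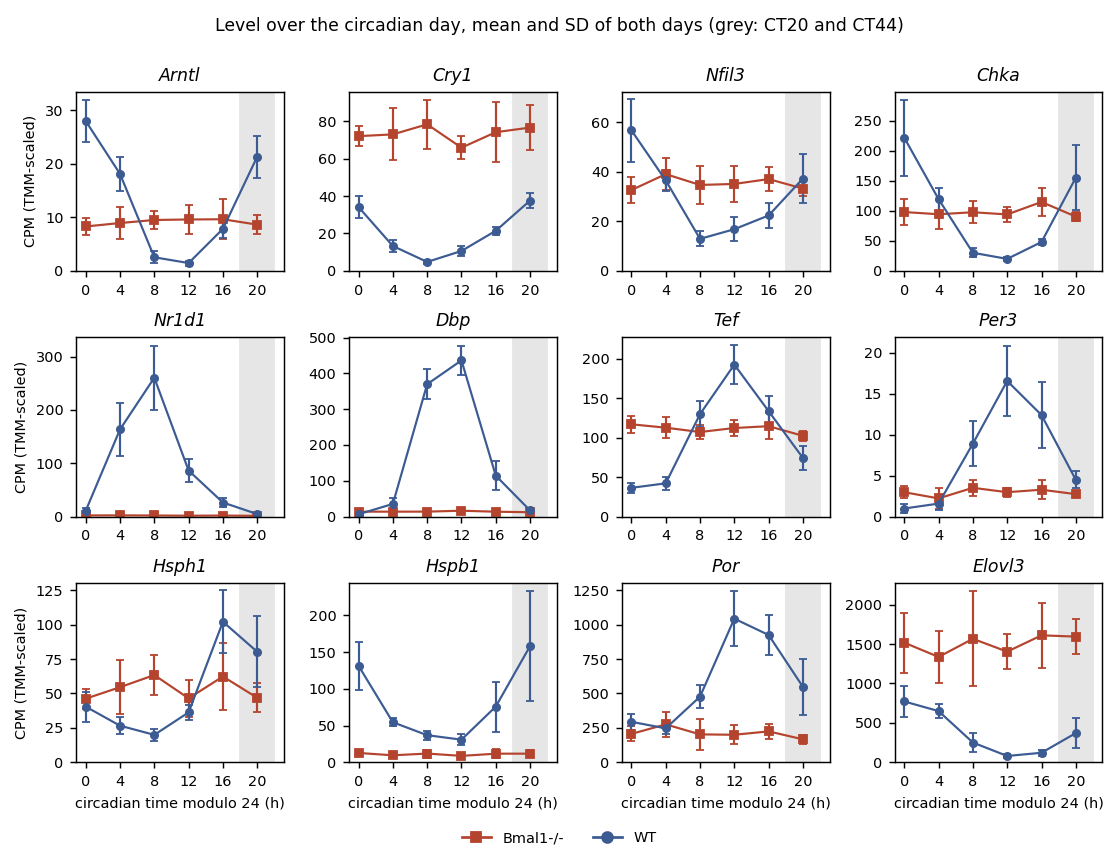
CPM (TMM-scaled over 94 libraries) by circadian time modulo 24 hours, mean ± SD of both days, for Bmal1-/- (red squares) and WT (blue circles); CT20/CT44 is shaded. Bmal1-/- profiles of Nr1d1 and Dbp were low and flat, WT profiles of both were at 1.81% and 3.92% of their peaks at CT20/CT44, that of Cry1 was at its highest there, and those of Arntl, Chka and Hspb1 lay above the Bmal1-/- level.

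In Bmal1-/- livers the same genes varied less over the day. The ratio of the highest to the lowest phase mean was 1.14 to 2.68 over the 15 E-box targets, against 1.88 to 67.1 in WT, and it was smaller in Bmal1-/- for all 15. As a percent of the highest WT mean, the Bmal1-/- level at CT20/CT44 was 2.79% for Dbp, 0.527% for Nr1d1, 16.5% for Per3 and 23.04% for Per1, against 53.1% for Tef, 59.4% for Per2, 109% for Cry2 and 204% for Cry1. Set against the WT means of the same gene, these levels thus ran from under the lowest (Nr1d1) to above the highest (Cry1 and Cry2).

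Of the RRE targets, Npas2 and Elovl3 were far higher. Of 8 tested, 3 were higher (37.5%, against 20.2% of all genes) and 1 lower (12.5%, against 21.6%), with a median of -0.03. Npas2, among the 3 higher, reached the count minimum through Bmal1-/- alone, so it had to differ to be tested. Elovl3 (chr19:46131897-46135694), a fatty acid elongase of the liver, had 1258, 1654 and 1978 CPM in Bmal1-/- and 21.3, 378 and 588 CPM in WT (log2 fold change 2.15 ± 0.39, adjusted p = 0.000278). The groups did not overlap, and the lowest WT value is that of WT CT44 A, one of the libraries that stood apart. Nfil3, the D-box repressor, had 30.1, 33.4 and 37.8 CPM in Bmal1-/- and 27.8, 34.7 and 59.3 CPM in WT (log2 fold change -0.19 ± 0.14, adjusted p = 0.276), with wide overlap. Arntl was the only RRE target that was lower. G0s2, an inhibitor of the triglyceride lipase ATGL, and Bach2, a transcriptional repressor, did not pass the test.

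Of 9 D-box targets tested, 2 were higher (22.2%, against 20.2% of all genes) and 4 lower (44.4%, against 21.6%), with a median of -0.12. Per3, already counted among the E-box targets and resting on few counts, was among the 4 lower. Por, the reductase that supplies electrons to cytochromes P450, had 106, 164 and 219.6 CPM in Bmal1-/- and 306, 494 and 968 CPM in WT (log2 fold change -1.74 ± 0.21, adjusted p = 3.84e-06). Cyp2a5, a P450 whose reads may be shared with its close copy Cyp2a4, had 94.2, 149 and 188 CPM in Bmal1-/- and 745, 1002 and 1356 CPM in WT (log2 fold change -2.83 ± 0.11, adjusted p = 9.27e-13). Neither gene had overlapping libraries. Lpin1, a phosphatidate phosphatase, went the other way, with 16.5, 82.01 and 105 CPM in Bmal1-/- and 9.74, 25.96 and 83.6 CPM in WT (log2 fold change 1.45 ± 0.40, adjusted p = 0.00715), and overlapped. Ces3a was also higher (log2 fold change 0.81 ± 0.17, adjusted p = 0.00097), and Gstt1 was lower (log2 fold change -0.66 ± 0.13, adjusted p = 0.000463). Below the minimum count stood Rgs16, a regulator of G protein signalling, with 0, 0.526 and 4.93 CPM in Bmal1-/- and 0.317, 1.67 and 4.08 CPM in WT.

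The same genes in Per1,2-/- livers at CT20/CT44 (n = 7 libraries, from a table whose symbols follow those of the WT table) show a second clock mutant at this phase. These mice lack Per1 and Per2, were of the same age and were kept alike. The comparison uses the same 7 Bmal1-/- libraries as that with WT. By edgeR's test 34.1% of 8452 genes differed between Bmal1-/- and Per1,2-/-. Dbp averaged 12.3 CPM in Bmal1-/- and 159.7 CPM in Per1,2-/- (log2 fold change, Bmal1-/- over Per1,2-/-, -3.67 ± 0.17, adjusted p = 6.86e-12), and Nr1d1 averaged 1.38 CPM in Bmal1-/- and 29.9 CPM in Per1,2-/- (-4.41 ± 0.23, adjusted p = 5.15e-11). Both were thus far lower in Bmal1-/- than in Per1,2-/-. Usp2 (-2.23 ± 0.12, adjusted p = 6.95e-11), Per3 (-2.81 ± 0.15, adjusted p = 5.87e-11) and Tef (-0.99 ± 0.08, adjusted p = 1.77e-08) went the same way. Cry1 averaged 77.3 CPM in Bmal1-/- and 20.5 CPM in Per1,2-/- (1.88 ± 0.13, adjusted p = 2.25e-09), and Elovl3 1609 CPM in Bmal1-/- and 137 CPM in Per1,2-/- (3.54 ± 0.17, adjusted p = 1.01e-11). Of 14 E-box targets tested, 2 were higher and 8 lower than in Per1,2-/- (median -0.71, against 16.7% higher and 17.4% lower over all genes). The E-box list holds Per1 and Per2, the genes deleted in the Per1,2-/- mice, and they were not taken out for these counts. Of 7 RRE targets 5 were higher and 1 lower (median 0.88), and of 10 D-box targets 1 was higher and 6 lower (median -1.05).

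To see which differences belonged to this phase, the difference between genotypes at CT20/CT44 was tested against that at CT8/CT32, the opposite phase (16 further libraries, no library in both). At CT8/CT32, 49.4% of 8389 genes differed between genotypes, 24.0% higher and 25.4% lower in Bmal1-/-. The difference changed between the phases for 583 of 8967 genes (6.5%). For 289 (3.22%) it was more positive at CT20/CT44, and for 294 (3.28%) more negative. In WT, 265 of the 289 had their highest phase mean at CT8/CT32 or CT12/CT36, as did 3161 of all 8967 genes. Of the 294, 242 had it at CT20/CT44 or CT0/CT24, as did 2997 of all genes. The WT libraries of CT8, CT20, CT32 and CT44 entered both the test and these means, so positions and ranges in part restate the choice. The ratio of the highest to the lowest phase mean had a median of 1.23 in Bmal1-/- and 1.68 in WT for the 289, and of 1.26 in Bmal1-/- and 1.84 in WT for the 294. It was wider in WT for 93.1% and 92.5% of them, and for 69.4% of all genes tested.

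Of the 583, 562 were tested at both phases: 142 differed between genotypes at CT20/CT44 alone, 281 at CT8/CT32 alone, 81 at both in the same direction, 53 at both in opposite directions and 5 at neither. Of all 3442 genes called at CT20/CT44 and tested at CT8/CT32, 2357 were called there in the same direction and 53 in the opposite one.

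**Figure D3:**
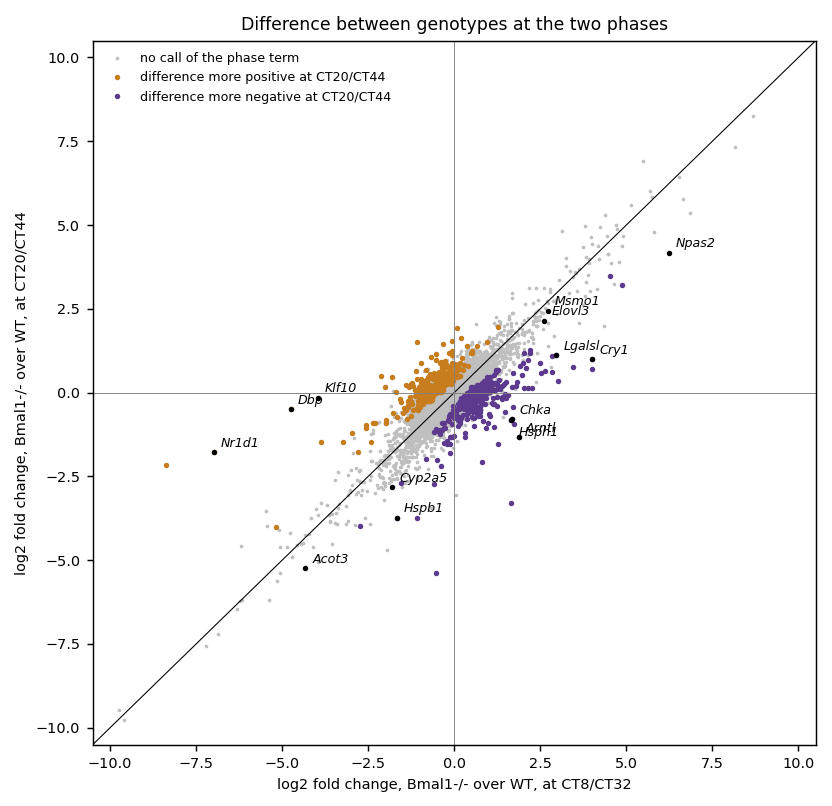
Log2 fold change, Bmal1-/- over WT, at CT20/CT44 (vertical) against CT8/CT32 (horizontal) for each gene tested at both; the line marks equal values. Orange and purple points are genes whose difference was more positive or more negative at CT20/CT44, among them Dbp and Nr1d1 far left of the line and Cry1 right of it, while genes such as Msmo1 and Cyp2a5 lay near it.

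The clock genes were among the strongest of these changes. For Dbp the log2 difference was -0.50 at CT20/CT44 and -4.75 at CT8/CT32 (change 4.25 ± 0.20, adjusted p = 7.41e-17), and for Nr1d1 -1.78 and -6.98 (change 5.21 ± 0.51, adjusted p = 1.63e-08). Both differed less at CT20/CT44. Arntl turned its sign, at -1.33 at CT20/CT44 and 1.87 at CT8/CT32 (change -3.20 ± 0.26, adjusted p = 2.34e-10): Bmal1-/- livers held 8.66 ± 1.82 CPM at CT20/CT44 and 9.52 ± 1.62 CPM at CT8/CT32, while WT livers held 21.4 ± 3.90 CPM at CT20/CT44 and 2.56 ± 1.12 CPM at CT8/CT32 (SD). For Cry1 the difference was 1.00 at CT20/CT44 and 4.01 at CT8/CT32 (change -3.01 ± 0.17, adjusted p = 2.61e-14) and for Nfil3 -0.19 and 1.40 (change -1.59 ± 0.20, adjusted p = 4.23e-06). Of the E-box targets, 15 of 15 differed between genotypes at CT8/CT32 (4 higher, 11 lower, median -0.95), and the change between the phases passed for 8 (4 in each direction), though the call of Per2 was lost without any 1 of 17 libraries. Of the RRE targets, 6 of 8 were higher and 2 lower at CT8/CT32 (median 1.95), and all 4 called changes, those of Arntl, Cry1 and Nfil3 among them, were more negative at CT20/CT44. With the 10 other time points in place of CT8/CT32, the changes of the E-box targets Tef, Bhlhe40, Per2 and Tspan4 no longer passed. Arntl, Nfil3, Rgs16, Lgalsl, Abcg8, Hsd3b7 and Btg2 were among the other genes whose change was then lost.

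Among the 10 genes of smallest p for this change, 5 are not in the lists above for the core clock. Chka, which encodes choline kinase, had 80.3, 89.4 and 101 CPM in Bmal1-/- and 92, 146 and 266 CPM in WT at CT20/CT44 (log2 fold change -0.80 ± 0.16, adjusted p = 0.000814), and was higher in Bmal1-/- at CT8/CT32 (1.68, change -2.48 ± 0.22, adjusted p = 1.29e-09). Lgalsl, a galectin-like protein, had 45.1, 50.6 and 66.7 CPM in Bmal1-/- and 17.4, 23.5 and 33.4 CPM in WT (log2 fold change 1.12 ± 0.14, adjusted p = 4.6e-06), and its difference was larger at CT8/CT32 (2.97, change -1.85 ± 0.22, adjusted p = 1.29e-06). Ulk1, a kinase that starts autophagy, had 29.1, 60.2 and 68.8 CPM in Bmal1-/- and 26.8, 35.8 and 46.4 CPM in WT (log2 fold change 0.64 ± 0.15, adjusted p = 0.00283), and was lower in Bmal1-/- at CT8/CT32 (-1.12, change 1.77 ± 0.18, adjusted p = 3.12e-08). Klf10, a zinc finger repressor, had 2.22, 6.33 and 12.3 CPM in Bmal1-/- and 4.37, 6.69 and 12.8 CPM in WT (log2 fold change -0.15 ± 0.29, adjusted p = 0.705), and was far lower in Bmal1-/- at CT8/CT32 (-3.97, change 3.84 ± 0.47, adjusted p = 1.99e-06). Chka and Ulk1 thus changed sign between the phases, and Klf10 passed the test at CT8/CT32 alone.

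The fifth, Hsph1, a chaperone of the HSP110 family, belongs to the heat shock genes. These are targets of HSF1 and follow body temperature and feeding in liver. Hsph1 had 33.6, 46.2 and 64.6 CPM in Bmal1-/- and 48.6, 81.8 and 130.5 CPM in WT (log2 fold change -0.81 ± 0.20, adjusted p = 0.00303), and was higher in Bmal1-/- at CT8/CT32 (1.65, change -2.42 ± 0.25, adjusted p = 3.27e-08). At CT8/CT32, 10 of 16 heat shock genes were higher, where 24.0% of all genes were, and 3 lower, where 25.4% were (median 0.47). The change was more negative at CT20/CT44 for 8 of 17, where 3.28% of all genes had it. At CT20/CT44, 4 of 17 were higher in Bmal1-/- (23.5%, against 20.2% of all genes) and 6 lower (35.3%, against 21.6%), with a median of -0.03. Without the 3 libraries that stood apart, and also without WT CT44 A or WT CT44 C alone, 2 were higher and 6 lower. Hspb1, the small heat shock protein HSP27, had 3.97, 11.5 and 17.1 CPM in Bmal1-/- and 80.3, 144 and 262 CPM in WT (log2 fold change -3.73 ± 0.31, adjusted p = 3.57e-08), no overlap, and -1.67 at CT8/CT32. Hspa4l was lower (log2 fold change -1.32 ± 0.18, adjusted p = 1.81e-05) with no overlap, and so were Hsp90ab1 (log2 fold change -0.57 ± 0.11, adjusted p = 0.00046) and Hsf1 (log2 fold change -0.58 ± 0.12, adjusted p = 0.000834), with overlap.

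**Figure D4:**
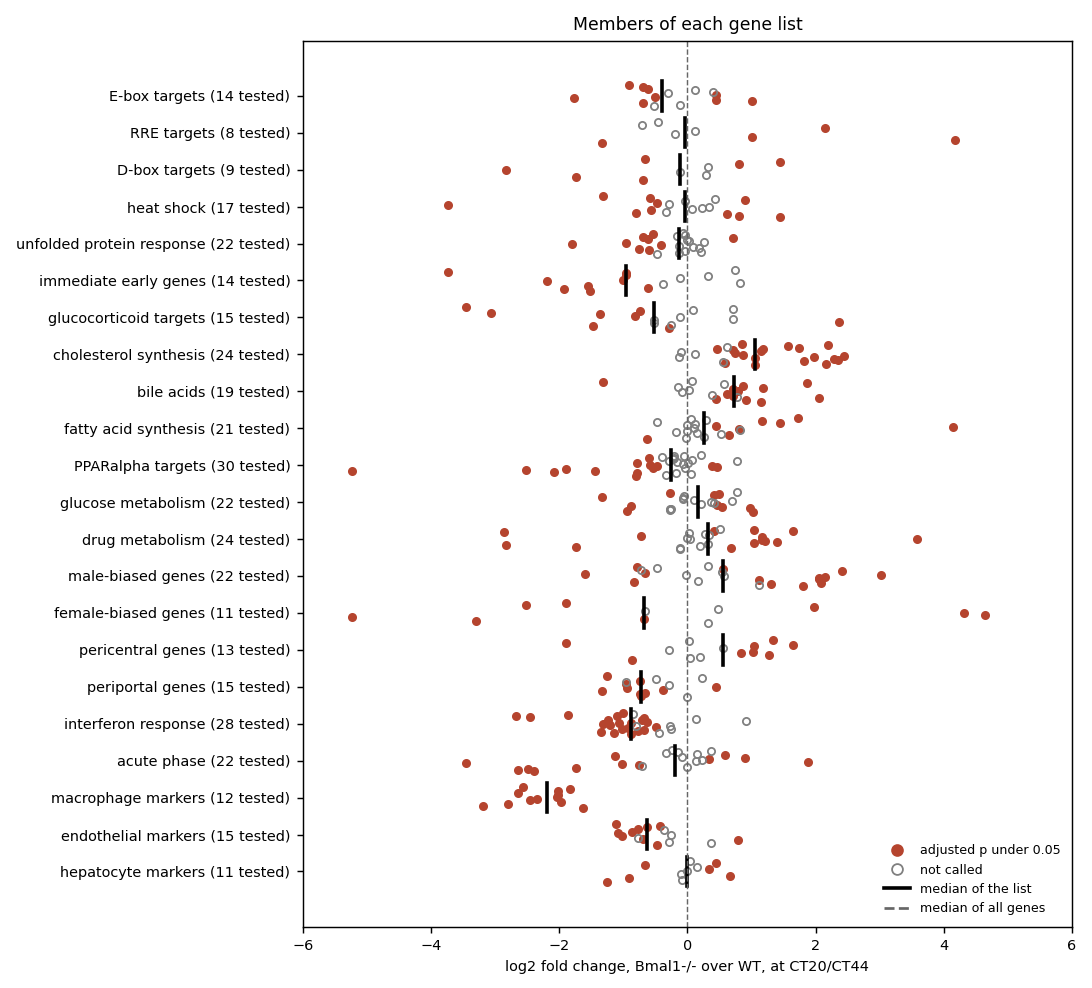
Log2 fold change, Bmal1-/- over WT, at CT20/CT44 for each tested member of 22 gene lists; filled points passed an adjusted p under 0.05, black bars give list medians and the dashed line the median of all genes. The macrophage markers lay wholly to the left, the interferon genes nearly so, and the cholesterol synthesis genes mostly to the right, whereas the clock lists spread to both sides.

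The unfolded protein response, which expands the folding capacity of the endoplasmic reticulum, moved in part. Of 22 genes, 1 was higher (4.55%, against 20.2% of all genes) and 8 lower (36.4%, against 21.6%), with a median of -0.13. At CT8/CT32, 11 of 25 were higher, where 24.0% of all genes were, and 3 lower, where 25.4% were. The change was more negative at CT20/CT44 for 6 of 25, where 3.28% of all genes had it. Sdf2l1, an endoplasmic reticulum chaperone cofactor that rises with feeding, had 10.6, 14.5 and 21.3 CPM in Bmal1-/- and 12.2, 47.7 and 116 CPM in WT (log2 fold change -1.80 ± 0.35, adjusted p = 0.000498). The groups overlapped at the low end of WT. Herpud1, which takes part in degradation of misfolded proteins, was lower with no overlap (log2 fold change -0.95 ± 0.13, adjusted p = 1.99e-05), Pdia4 was lower (log2 fold change -0.76 ± 0.19, adjusted p = 0.00383) and Atf5 was higher (log2 fold change 0.70 ± 0.16, adjusted p = 0.0019).

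Genes of cholesterol synthesis were higher as a group. Of 24 tested, 19 were higher (20.2% of all genes were) and 5 did not pass the test, with a median log2 fold change of 1.06, and at CT8/CT32 24 of 25 were higher (median 1.34). Lss, which closes the sterol ring, had 14.02, 29.6 and 37.4 CPM in Bmal1-/- and 1.85, 6.55 and 8.24 CPM in WT (log2 fold change 2.34 ± 0.26, adjusted p = 1.25e-06). Msmo1, a sterol demethylase, had 94.5, 151 and 172 CPM in Bmal1-/- and 3.96, 27.5 and 37.4 CPM in WT (log2 fold change 2.44 ± 0.28, adjusted p = 2.2e-06). Mvk, mevalonate kinase, was higher (log2 fold change 1.74 ± 0.20, adjusted p = 2.76e-06), as was Scap, the escort of the SREBP transcription factors (log2 fold change 0.85 ± 0.10, adjusted p = 2.19e-06). None of these 4 overlapped between genotypes, and without the 3 libraries that stood apart, WT CT44 A with its low sterol genes included, 21 were higher. The summed level of the list was 4937 to 7775 CPM in Bmal1-/- and 1283 to 4320 CPM in WT, without overlap.

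Of 19 bile acid genes, 11 were higher (57.9%, against 20.2% of all genes) and 1 lower (5.26%, against 21.6%), with a median of 0.72. Without the 3 libraries that stood apart 9 were higher. Cyp7a1, the rate-limiting enzyme of bile acid synthesis, had 96.3, 166 and 212 CPM in Bmal1-/- and 46.2, 81.01 and 107 CPM in WT (log2 fold change 1.15 ± 0.18, adjusted p = 5.76e-05), with overlap. Abcg8, which exports sterols into bile together with ABCG5, had 104, 137 and 169 CPM in Bmal1-/- and 29.01, 64.2 and 79.4 CPM in WT (log2 fold change 1.18 ± 0.17, adjusted p = 2.45e-05), with no overlap. Its difference was -0.15 at CT8/CT32 (change 1.33 ± 0.22, adjusted p = 0.000192). In all, 5 of the 19 genes, Abcg5 and Abcg8 among them, changed to more positive at CT20/CT44, where 3.22% of all genes did. Hsd3b7, a further enzyme of the synthesis, was higher (log2 fold change 0.72 ± 0.10, adjusted p = 3.55e-05), as was Slco1b2, an uptake transporter (log2 fold change 1.87 ± 0.25, adjusted p = 1.32e-05).

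Of 21 genes of fatty acid synthesis, 7 were higher (33.3%, against 20.2% of all genes) and 1 lower (4.76%, against 21.6%), with a median of 0.26. Without 1 library 0 to 1 were lower. Fads2, a desaturase, was higher without overlap (log2 fold change 1.73 ± 0.17, adjusted p = 2.4e-07). Of 30 targets of PPARα, the receptor that raises fatty acid oxidation in fasting, 2 were higher (6.67%, and 1 to 2 without 1 library). Lower were 12 (40.0%), and the median was -0.26. Acot3, among these 12, passed the count minimum through WT alone, so it had to differ to be tested. At CT8/CT32, 1 of 32 was higher, where 24.0% of all genes were, and 22 lower, where 25.4% were. Acot3, a peroxisomal acyl-CoA thioesterase, had 0, 0.493 and 1.503 CPM in Bmal1-/- and 6.52, 15.7 and 64.2 CPM in WT (log2 fold change -5.24 ± 0.62, adjusted p = 3.19e-06), without overlap, at raw counts of 0 to 6 in Bmal1-/- and 16 to 173 in WT. Acot1 (log2 fold change -2.08 ± 0.33, adjusted p = 7.72e-05) and Acot4 (log2 fold change -1.44 ± 0.19, adjusted p = 1.54e-05) were lower without overlap too, and reads may be shared among these copies. Cyp4a10, a fatty acid hydroxylase, was lower (log2 fold change -2.52 ± 0.40, adjusted p = 8.43e-05), with WT levels that ran up to 1417 CPM. Of 22 glucose genes, 6 were higher (27.3%) and 4 lower (18.2%), near the shares of all genes, with a median of 0.16. Gys2, liver glycogen synthase, was lower without overlap (log2 fold change -0.88 ± 0.10, adjusted p = 2.19e-06), and Pklr, liver pyruvate kinase, was higher with overlap (log2 fold change 0.97 ± 0.27, adjusted p = 0.00763).

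Genes of the macrophage, the resident Kupffer cell of liver, were lower without exception. All 12 tested markers were lower, where 21.6% of all genes were, with a median of -2.19. Of these, 9 had no overlap, as had 13.7% of all genes. All 12 were called without each single library in turn, and 11 without the 3 libraries that stood apart. In bulk tissue, fewer cells of a type and less RNA per cell cannot be told apart. C1qa, a complement subunit, had 30.4, 59.98 and 91.9 CPM in Bmal1-/- and 155, 193 and 384 CPM in WT (log2 fold change -2.04 ± 0.23, adjusted p = 2e-06). Adgre1 (the F4/80 antigen) had 0.397, 2.15 and 3.51 CPM in Bmal1-/- and 9.52, 20.6 and 38.7 CPM in WT (log2 fold change -3.19 ± 0.34, adjusted p = 1.16e-06), and Clec4f, a lectin of Kupffer cells, had 26.6, 41.5 and 56.2 CPM in Bmal1-/- and 90.9, 119 and 189 CPM in WT (log2 fold change -1.63 ± 0.19, adjusted p = 2.19e-06). All 13 listed markers had counts in at least 1 library. The summed level of the 13 markers was 161 to 528 CPM in Bmal1-/- and 801 to 3031 CPM in WT, the highest in WT CT44 C. At CT8/CT32, 11 of 11 were lower (median -1.68).

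**Figure D5:**
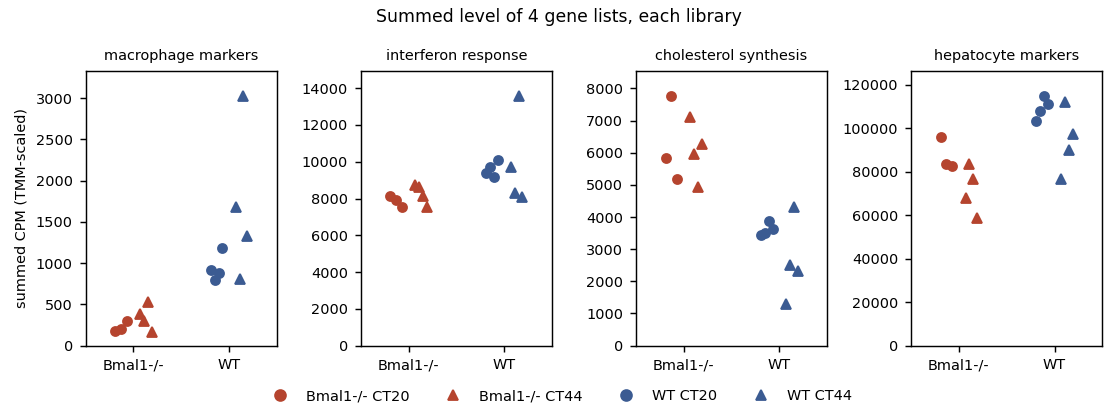
Summed CPM (TMM-scaled) of 4 gene lists in each library, Bmal1-/- (red) left of WT (blue), CT20 as circles and CT44 as triangles. Macrophage sums lay at 161 to 528 in Bmal1-/- and 801 to 3031 in WT and cholesterol synthesis sums at 4937 to 7775 in Bmal1-/- and 1283 to 4320 in WT, each without overlap, and the sums of hepatocyte and interferon genes overlapped.

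Other cell markers moved less. Of 15 endothelial markers, 1 was higher and 9 lower (median -0.63), with Ehd3 lower without overlap (log2 fold change -1.02 ± 0.15, adjusted p = 3.87e-05) and Stab2, a scavenger receptor of sinusoids, higher without overlap (log2 fold change 0.79 ± 0.12, adjusted p = 3.32e-05). Of 9 stellate cell markers, 1 was higher (11.1%, and 0 to 1 without 1 library) and 3 lower (33.3%, and 5 without Bmal1-/- CT44 D or WT CT44 B). Col1a1, among the 3 lower, passed the count minimum through WT alone, so it had to differ to be tested. Of 11 hepatocyte markers, 3 were higher (27.3%) and 3 lower (27.3%), near the shares of all genes (median -0.01). Among these, Alb was lower without overlap (log2 fold change -1.25 ± 0.25, adjusted p = 0.000653), and Apoa1 likewise (log2 fold change -0.91 ± 0.13, adjusted p = 2.27e-05), while Apoa2 was higher (log2 fold change 0.67 ± 0.13, adjusted p = 0.000516).

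Interferon response and MHC class I genes were lower as well. Of 28 tested, 21 were lower (21.6% of all genes were) and 7 did not pass the test, with a median of -0.88, and 20 were lower without the 3 libraries that stood apart. At CT8/CT32, 1 was higher and 21 lower. Gbp3, an interferon-induced GTPase, had 2.15, 3.45 and 5.26 CPM in Bmal1-/- and 7.79, 13.7 and 60.2 CPM in WT (log2 fold change -2.67 ± 0.36, adjusted p = 1.43e-05). Igtp, a GTPase of the same response, was lower (log2 fold change -1.86 ± 0.26, adjusted p = 2.34e-05), as were Psmb10, a subunit of the immunoproteasome (log2 fold change -1.07 ± 0.16, adjusted p = 5.94e-05), and H2-D1, an MHC class I gene whose reads may be shared with its copies (log2 fold change -1.24 ± 0.13, adjusted p = 7.99e-07). All 4 had no overlap. The summed macrophage markers given above were lower in the same libraries, and their part in this result was not tested. Of 22 acute phase genes, 4 were higher (18.2%, against 20.2% of all genes) and 8 lower (36.4%, against 21.6%). Saa3 (log2 fold change -2.49 ± 0.26, adjusted p = 7.9e-07), Saa4 (log2 fold change -1.75 ± 0.18, adjusted p = 4.99e-07) and hemopexin, Hpx (log2 fold change -1.03 ± 0.14, adjusted p = 1.32e-05), were lower and Fgg, a fibrinogen chain, was higher (log2 fold change 0.89 ± 0.12, adjusted p = 1.54e-05), each without overlap.

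Immediate early genes, which respond within minutes to stimuli and to handling of tissue, were lower as a group. Of 14, 9 were lower (64.3%, against 21.6% of all genes) and 5 did not pass the test (median -0.96). Gadd45b, among these 9, passed the count minimum through WT alone, so it had to differ to be tested. At CT8/CT32, 1 of 15 was higher and 5 were lower. At CT20/CT44, 6 were lower without the 3 libraries that stood apart. Gadd45b had 0, 0.816 and 2.38 CPM in Bmal1-/- and 3.49, 8.497 and 32.9 CPM in WT (log2 fold change -3.74 ± 0.43, adjusted p = 2.49e-06), and Btg2 was lower too (log2 fold change -2.19 ± 0.37, adjusted p = 0.000138), both without overlap. Both differed more at CT20/CT44 than at CT8/CT32 (change -2.62 ± 0.63, adjusted p = 0.00878, and -1.80 ± 0.50, adjusted p = 0.0254), a call that for Btg2 was lost without Bmal1-/- CT32 C (-1.54, adjusted p = 0.0666). Junb (log2 fold change -1.92 ± 0.33, adjusted p = 0.00018) and Jun (log2 fold change -1.52 ± 0.30, adjusted p = 0.000607) were lower as well, Junb without and Jun with overlap. The part of the macrophage markers in this result was not tested. Of 15 glucocorticoid targets, 1 was higher (6.67%, against 20.2% of all genes) and 7 lower (46.7%, against 21.6%), with a median of -0.52. However, 4 were lower without Bmal1-/- CT44 A or Bmal1-/- CT44 B, and 2 higher without WT CT44 C. Fkbp5, a co-chaperone of the glucocorticoid receptor, had 11.3, 18.8 and 24.97 CPM in Bmal1-/- and 26.8, 47.8 and 89.4 CPM in WT (log2 fold change -1.48 ± 0.27, adjusted p = 0.000258), without overlap, whereas Zbtb16, a zinc finger factor, was higher with overlap (log2 fold change 2.36 ± 0.41, adjusted p = 0.000199).

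Of 12 genes of the growth hormone axis, 3 were higher (25.0%, against 20.2% of all genes) and 2 lower (16.7%, against 21.6%). The median was -0.02, and 1 to 4 were higher without 1 library, so the list stayed near the shares of all genes. Within it Igf1, the hormone the liver releases in response to growth hormone, had 60.4, 76.98 and 98.3 CPM in Bmal1-/- and 312, 393 and 470.5 CPM in WT (log2 fold change -2.33 ± 0.13, adjusted p = 1.31e-10). The groups did not overlap, and the difference was -2.77 at CT8/CT32. Stat5b, the transcription factor downstream of the growth hormone receptor, was higher (log2 fold change 1.08 ± 0.09, adjusted p = 3.95e-08) without overlap. Of 22 male-biased genes, 10 were higher (45.5%, against 20.2% of all genes) and 4 lower (18.2%, against 21.6%), with a median of 0.56. Of 11 female-biased genes 3 were higher (27.3%) and 5 lower (45.5%), with a median of -0.67. Only 1 of these 3 was tested without any 1 Bmal1-/- library, since the others passed the count minimum through Bmal1-/- alone. Acot3, among the 5 lower, passed it through WT alone. Mup21 (log2 fold change 2.09 ± 0.24, adjusted p = 2.38e-06) and Ugt2b1 (log2 fold change 3.02 ± 0.34, adjusted p = 1.99e-06) were higher and Serpina1e was lower (log2 fold change -1.59 ± 0.24, adjusted p = 5.88e-05), all from families of close copies. Of 24 genes of drug metabolism, 10 were higher (41.7%, against 20.2% of all genes) and 4 lower (16.7%, against 21.6%), with a median of 0.32. Cyp2c55 was higher (log2 fold change 3.58 ± 0.25, adjusted p = 3.66e-09) and Gsta2 lower (log2 fold change -2.87 ± 0.22, adjusted p = 1.39e-08).

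Along the liver lobule, genes of the pericentral and of the periportal zone differed in their counts. Of 13 pericentral genes, 6 were higher (46.2%, against 20.2% of all genes) and 2 lower (15.4%, against 21.6%), with a median of 0.56. Without 1 library 1 to 3 were lower. Oat, ornithine aminotransferase, was higher (log2 fold change 1.27 ± 0.22, adjusted p = 0.00021) and Aldh3a2 lower (log2 fold change -1.89 ± 0.21, adjusted p = 1.68e-06), both without overlap. Of 15 periportal genes, 1 was higher and 9 lower (median -0.73), with Asl (log2 fold change -1.33 ± 0.13, adjusted p = 2.08e-07) and Hal (log2 fold change -0.73 ± 0.13, adjusted p = 0.000211), enzymes of nitrogen metabolism, lower without overlap. At CT8/CT32, 2 periportal genes were higher and 4 lower, and the difference of Asl was -0.085 there (change -1.27 ± 0.27, adjusted p = 0.00257).

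Genes of insulin signalling, in which the kinase AKT is central, had counts near the shares of all genes. Of 19, 5 were higher (26.3%, against 20.2%) and 3 lower (15.8%, against 21.6%), with a median of 0.20, and 3 were higher without WT CT20 A or WT CT44 D. Akt1 (log2 fold change -0.64 ± 0.10, adjusted p = 0.000109) and Akt2 (log2 fold change -1.72 ± 0.20, adjusted p = 3.39e-06), the kinases themselves, were lower and Foxo1, the transcription factor they inhibit, was higher (log2 fold change 0.69 ± 0.11, adjusted p = 0.000109), each without overlap. Tsc2, a brake on mTORC1 that AKT phosphorylates, was higher with overlap (log2 fold change 0.67 ± 0.11, adjusted p = 0.000158). The test of change between the phases gave these 4 an adjusted p of 0.495 to 0.944.

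The most extreme fold changes ran through all times of day. Of the 24 genes of largest difference named by rule (12 higher, 12 lower, no overlap, called without each library in turn), 21 had no overlap between Bmal1-/- and WT over all 94 libraries at all times, which holds for 3.04% of all genes and for 256 (22.2%) of the 1155 called genes chosen like these for no overlap at CT20/CT44. The Per1,2-/- mean lay nearer WT for 22 of the 24. These genes were chosen for a large gap between the same Bmal1-/- and WT libraries, and the share over all genes was not taken. That count is therefore a description only. Samm50, a subunit of the mitochondrial sorting machinery, had 0, 0.204 and 0.501 CPM in Bmal1-/- and 166, 202 and 237 CPM in WT (log2 fold change -9.77 ± 0.23, adjusted p = 1.84e-15). Rps20 (log2 fold change -9.48 ± 0.26, adjusted p = 6.56e-15) and Rps24 (log2 fold change -7.19 ± 0.26, adjusted p = 3.13e-13), ribosomal proteins, and Ctsl (log2 fold change -7.56 ± 0.17, adjusted p = 1.56e-15), a lysosomal protease, were lower, and Ubb, ubiquitin B, was higher (log2 fold change 7.33 ± 0.27, adjusted p = 3.66e-13). Pgm1 (log2 fold change 6.43 ± 0.20, adjusted p = 5.68e-14) and Pgm2 (log2 fold change -6.46 ± 0.16, adjusted p = 1.84e-15) mirrored each other, and RefSeq lists each symbol as a synonym of the other. The WT and Per1,2-/- tables share symbols that the Bmal1-/- table lacks, so genotype and annotation cannot be told apart for these genes. The 3 that overlapped at other times were Acot3, Amy1 (an amylase, log2 fold change 3.85 ± 0.43, adjusted p = 1.68e-06) and Tff3 (a trefoil factor, log2 fold change -5.38 ± 0.79, adjusted p = 3.77e-05). Of the 58 called genes with a log2 fold change of at least 4 in size, 51 had no overlap over all 94 libraries.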

How the data were processed

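Livers of mice in constant dark were sequenced by bulk MARS-seq. The authors deposited 1 table of UMI counts per genotype, made, per their methods and processing notes, with bcl2fastq, cutadapt, STAR (mm10), RefSeq genes and HTSeq-count in the UTAP pipeline, whose versions are not given in the sources used here. Columns of values normalized by the authors (94) and the DESeq2 results beside them were not used. Counts of the 10559 symbols in both tables were tested with edgeR 4.0.16 (quasi-likelihood F-test, TMM, day as a block, R 4.3.3), keeping genes with at least 10 counts in at least 7 libraries, with Benjamini-Hochberg adjustment over all genes tested and a threshold of 0.05. SE is the log2 fold change over the root of F. The change between phases is the genotype by phase term over CT8, CT20, CT32 and CT44. Tables and figures used Python 3.11.15, NumPy 2.4.6, pandas 2.3.3 and Matplotlib 3.10.9. The code was tested on simulated data.

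The members, gene lists and tests were chosen with earlier results of these data known. Named were all genes of the clock lists, the 12 highest and 12 lowest fold changes that did not overlap and were called without each library in turn, up to 4 called genes of smallest p in each other list, and the 10 of smallest p for the change between phases. A gene of this rule is counted in its lists but not reported here. Abcg5, B2m, Cd74 and Saa2 were named after their values were seen. Alternatives were other normalizations (DESeq2 size factors, upper quartile), DESeq2 1.42.0, other filters, each day alone, no day term, a replicate block and each library left out. The comparison with the 10 other time points, the genes renamed between the tables (411 pairs) and the omission of the 3 libraries that stood apart were added after seeing the data. Total counts were 2394760 to 5152652 per library, and p-values cover the spread between libraries only.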

Additional observations from a re-analysis of the deposited data

Results flagged for a closer look

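In 102 groups of 4 libraries checked (the total count and the levels of the genes given most fully above, 34 quantities in each of 3 groups), 2 values lay far from the others of their group, and chance alone flags about 1 in 20 groups. Nr1d1 was at 0.2504 CPM in Bmal1-/- CT44 C, with the other 3 libraries of Bmal1-/- CT44 at 1.57 to 1.84 CPM. Per2 was at 25.66 CPM in WT CT44 D, with the other 3 libraries of WT CT44 at 12.78 to 13.35 CPM.

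The difference between Bmal1-/- and WT at CT20/CT44 departed from that at CT8/CT32 for 583 genes by the test of the change itself (edgeR, adjusted p under 0.05), 35 of which are named here. The values that follow are that change on the log2 scale. It was positive, that is, Bmal1-/- stood higher relative to WT at CT20/CT44 than at CT8/CT32, for 12 genes: Rgs16 6.277, Nr1d1 5.206, Dbp 4.249, Klf10 3.838, Ulk1 1.769, Lpin1 1.73, Bhlhe40 1.413, Abcg8 1.327, Slc40a1 1.071, Tef 0.75, Hsd3b7 0.537 and Gckr 0.34. It was negative for 23 genes: Cyp17a1 -5.796, Tff3 -5.597, Arntl -3.2, Cry1 -3.006, Gadd45b -2.621, Chka -2.477, Hsph1 -2.425, Hspb1 -2.12, Lgalsl -1.846, Btg2 -1.804, Sdf2l1 -1.674, Hspa4l -1.643, Mcm2 -1.592, Nfil3 -1.588, Hmox1 -1.564, Asl -1.275, Per2 -0.96, Hsp90ab1 -0.956, Ahcy -0.826, Afmid -0.632, Tspan4 -0.614, Slc25a38 -0.591 and Agpat2 -0.509. Rgs16 and Nr1d1 had the largest positive values, and both rested on few counts at CT20/CT44. Cyp17a1 and Tff3 had the largest negative values, and both calls were lost without Bmal1-/- CT32 C, where Tff3 was left at -1.74 (adjusted p = 0.486). Other calls were weak. That of Gckr was lost without any 1 of 23 libraries, and those of Lpin1, Afmid and Slc25a38 without any 1 of 19 each. For Hmox1 and Per2 this held for 17 libraries each, and for Agpat2 for 9.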

How the results depend on the processing

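Counts of genes higher and lower in Bmal1-/- at CT20/CT44 (1701 and 1817) fell with fewer libraries, to 938 and 963 at CT20 alone and to 791 and 886 at CT44 alone, and to 1119 higher at an adjusted p under 0.01. Without each library in turn they ran from 1540 to 1728 higher and from 1574 to 1823 lower, and the counts against Per1,2-/- from 2551 to 3052. The change between the days was called for 0 genes by edgeR and 6 by DESeq2 (Cox5a, Cyp26a1, Hp, Hspa1b, Pld3 and Urah), and for 0 to 1 without each library (Cyp26a1, without Bmal1-/- CT20 C). The change between the phases was called for 583 genes, for 473 to 654 without each library, for 238 at an adjusted p under 0.01 and for 237 when CT20/CT44 was set against the 10 other time points, an alternative chosen after seeing the data, under which Arntl, Nfil3, Lgalsl, Tef and 14 more of the 35 named genes lost the call. The cause was not tested. With a replicate block 1634 were higher, 1760 lower, 599 changed between phases, 0 between days and 2663 differed from Per1,2-/-, and of the named genes Dbp, Dcn, Ftl1 and Stat5a lost their call. No pairing by letter was seen: deviations of the same letter correlated at -0.071 to 0.059 and those of different letters at -0.052 to 0.07. The deviations were taken from the mean of each small group, so these values do not settle whether letters pair the libraries. Without the 3 libraries that stood apart 1661 were higher, 1646 lower and 567 changed between phases, and with the renamed genes 1769, 1888 and 614. Of 4449 values of 176 named genes under alternatives, 4352 kept direction and call, 90 lost the call, 7 gained it and 0 turned sign by edgeR or DESeq2. The call was lost without 1 library for Dbp, Dcn, Ftl1, Stat5a, Usp2 and Wee1, and 6 more, Npas2 and Nr1d1 among them, fell under the count minimum without 1 library and were not tested. Of 35 changes between phases, 10 lost their call without 1 library, and that of Cyp17a1 reversed to 0.754 (adjusted p = 0.721) without Bmal1-/- CT32 C, with a lowest value of -6.181 without Bmal1-/- CT20 C. Depth limits Nr1d1, Nr1d2, Npas2, Rgs16 and Per3, which had few counts.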

Other observations

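Gene groups outside the comparisons above at CT20/CT44 are given as values without an explanation, beside 20.2% of all genes higher and 21.6% lower in Bmal1-/-. Of 75 genes for cytosolic ribosomal proteins, 34 were higher and 5 lower (median log2 fold change 0.32), with a summed level of 43531 to 48155 CPM in Bmal1-/- and 31110 to 40110 CPM in WT, without overlap, and at CT8/CT32 50 were higher and 4 lower. Among the 5 lower ones were Rps20 and Rps24, which hardly had counts in any Bmal1-/- library. Of 66 genes for mitochondrial ribosomal proteins, 26 were higher and 7 lower (median 0.12), of 34 for complex I, the entry point of the respiratory chain, 10 were higher and 3 lower (median 0.14), and of 34 for complexes III to V 12 were higher and 6 lower (median 0.19). Of 37 proteasome genes, 7 were higher (18.9%) and 8 lower (21.6%), close to the shares of all genes (median 0.04).

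Of 32 genes for amino acid breakdown and urea synthesis, 12 were higher and 8 lower (median 0.22), against 21 higher and 4 lower at CT8/CT32. Of 14 targets of NRF2, which responds to oxidative stress, 5 were higher and 5 lower, of 18 genes of NAD metabolism and sirtuins 6 were higher and 6 lower (3 lower without Bmal1-/- CT20 B, Bmal1-/- CT44 A or Bmal1-/- CT44 B), of 14 heme genes 2 were higher and 4 lower, and of 9 iron genes 1 was higher and 2 lower (1 to 2 without 1 library). Of 20 clock output genes, 5 were higher and 4 lower (median -0.04; 2 lower without Bmal1-/- CT44 A), and the difference changed between the phases for 13 of 21, 6 towards positive and 7 towards negative. Of 15 cell cycle genes, 5 were lower, whereas without the 3 libraries that stood apart 3 were higher and 3 lower. Of 4 bile duct markers 1 was higher (1 to 2 higher and 0 to 1 lower without 1 library), and of 3 blood cell markers 2 were lower (1 to 2 without 1 library). Ptprc, among these 2, passed the count minimum through WT alone, so it had to differ to be tested. The single pancreas gene in both tables was too low to be tested, at 0.3 to 5.0 CPM.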
